A study of Homo sapiens with 13 samples.

Results

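The olfactory receptor (OR) genes of human chromosome 11 were read in 2 lists of accessible chromatin regions, 1 for each of the small cell lung cancer cell lines H82 and H146. The members were the protein-coding genes of GENCODE release 44 on chromosome 11 whose symbol is OR, a family number, 1 or 2 letters and a member number. There were 172 such genes among 20033 protein-coding genes. The regions came from ATAC-seq, in which a transposase cuts open DNA. Both lines are neuroendocrine, and H82 is of the NEUROD1 subtype. H146 was assayed as 4 untreated samples and 3 samples given FHD-286, an inhibitor of the SMARCA4 and SMARCA2 chromatin remodelling ATPases, and H82 as 3 untreated and 3 FHD-286 samples. The inhibitor was given at 100 nM for 14 days. Each list pooled the untreated and the treated samples of its line, so no effect of FHD-286 on an OR gene could be measured, no value below has a replicate, and read depth is unknown. A region says only that the interval was called open in at least some of the pooled samples.

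Olfactory receptors are G protein-coupled receptors of the olfactory sensory neuron, the nasal cell that detects odours. Each such neuron expresses a single OR gene, and the remaining OR genes are held in compact chromatin there and in other tissues. In that neuron the factors LHX2 and EBF with the adaptor LDB1 bind enhancers that lie among the OR clusters. Class I receptors (here families 51, 52 and 56) resemble the receptors of fish and lie in 1 cluster near the end of the short arm, and class II holds the other families. The 172 members comprised 55 class I and 117 class II genes. The family was taken up as one expected to be closed in a lung cancer line, and the questions were which of them lay near an open region and whether those regions differed between the lines.

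The lines were checked by their marker genes. At the transcription start site (TSS), which here means at most 1 kb from it, 7 of 7 neuroendocrine markers were open in H82 and 6 of 7 in H146, where NEUROD1 had no region. Of 7 olfactory sensory neuron markers, 5 were open in H82 and 4 in H146. The remaining lists were small and had the same counts in both lines: 2 of 4 lymphocyte and monocyte markers, 2 of 2 fibroblast, 3 of 3 tuft and 3 of 4 low-neuroendocrine markers, so an open TSS did not separate cell types here. H82 had 206927 regions and H146 had 174093.

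The lists shared edges to the base. Of 119959 pairs in which an H82 region met a single H146 region, 35420 (29.5%) started on the same base and 35452 (29.6%) ended on the same base. Each start difference of 1 to 10 bp held on average 288 pairs. Both edges were the same in 19180 regions, which were 9.27% of the H82 and 11% of the H146 list. On chromosome 11, 33.2% of the H82 and 31.8% of the H146 regions had at least 1 edge in common with the other list. How these equal edges arose was not tested. Whether such a region was called in each line on its own is not known, and values without such regions are given for the counts of members at the TSS and up to 10 kb away, the mean covered share and the line-only shares.

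**Figure D1:**
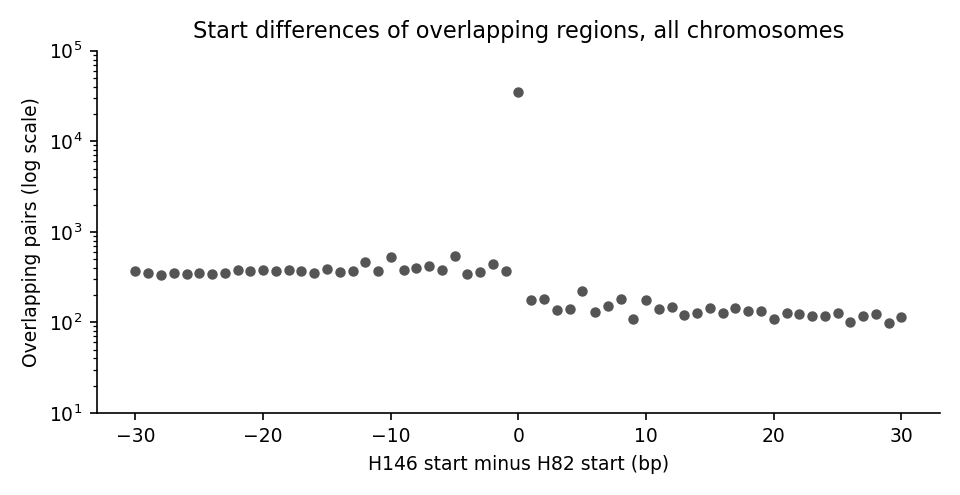
Start position of the H146 region minus that of the H82 region, in pairs where an H82 region met a single H146 region. Differences up to 30 bp are drawn, with the number of pairs on a log scale. The point at 0 stands for 35420 pairs, against a mean of 288 at each difference of 1 to 10 bp.

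Of the 172 members, 9 (5.23%) had an open region at the TSS (at most 1 kb away) in H82 and 9 (5.23%) in H146. Over all protein-coding genes the shares were 80.5% in H82 and 77.2% in H146. The region was present in both lines at 7 members, in H82 only at 2 and in H146 only at 2. The background shares over all genes were 75.4% for both lines, 5.10% for H82 only and 1.86% for H146 only. At 161 members (93.6%) neither line had a region. The other protein-coding genes of chromosome 11 had one at 925 of 1145 in H82 (80.8%) and 923 in H146 (80.6%), so the low share was not that of the chromosome. The 228 OR genes of other chromosomes had a region at 19 (8.33%) and 20 (8.77%). Without regions that had an edge in common with the other list, 5 members were left in each line, 3 of them (OR51D1, OR51L1 and OR51T1) in both.

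At a distance of up to 10 kb, 39 members had a region in H82 (22.7%) and 41 in H146 (23.8%). The background was 92.7% of all genes in H82 and 90.4% in H146. The region was found in both lines at 28 members, in H82 only at 11 and in H146 only at 13, against background shares of 88.9%, 3.79% and 1.49%. No region lay within 10 kb of 120 members (69.8%). Of the 228 other OR genes, 101 (44.3%) had one in H82 and 91 (39.9%) in H146. Without regions that shared an edge between the lists, 28 members were left in H82 and 33 in H146. The median distance from a member's TSS to the nearest region was 24.4 kb in H82 and 27.2 kb in H146.

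Among the members, the class I genes carried most of the open regions. At the TSS itself or up to 1 kb away, 7 of 55 class I genes (12.7%) and 2 of 117 class II genes (1.71%) had a region, with the same counts in each line. Within 10 kb the class I counts were 25 (45.5%) in H82 and 29 (52.7%) in H146, and the class II counts were 14 (12.0%) and 12 (10.3%). The 228 OR genes of other chromosomes were nearer to class I than to these class II genes. Their shares were 8.33% in H82 and 8.77% in H146 at 1 kb, and 44.3% and 39.9% at 10 kb. By family, 13 of 22 family 51 genes had a region within 10 kb in each line, and 11 of 27 family 52 genes had one in H82 and 13 in H146. In the large class II families 5 and 8, no region of either line lay within 10 kb of 29 of 35 and 20 of 23 genes. All class I genes lie in 1 cluster and share its surroundings, so these counts are not independent of position.

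**Figure D2:**
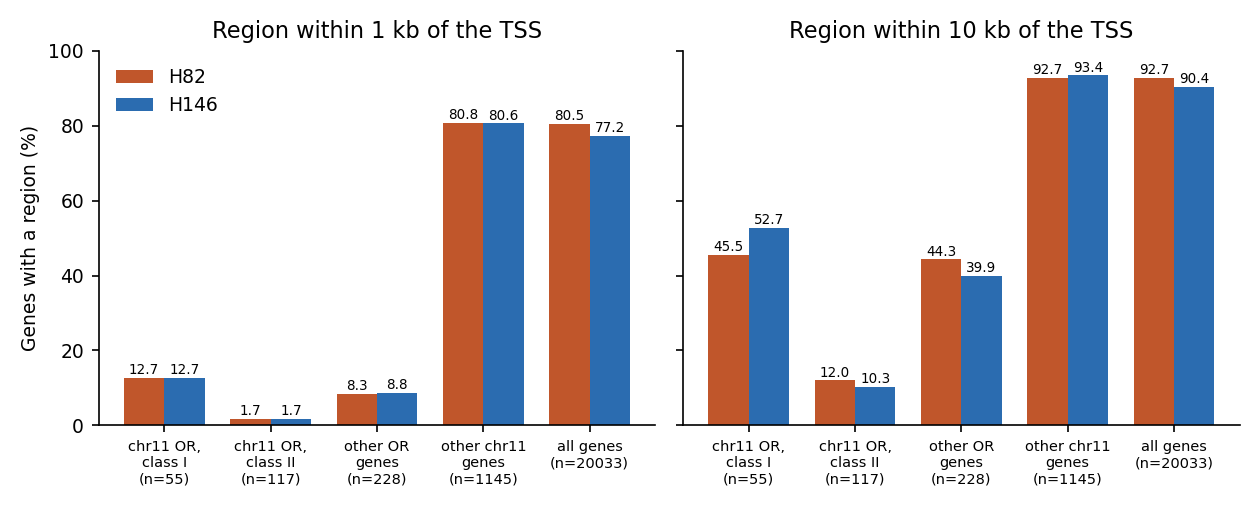
Share of genes (bars, percent) with an accessible region at most 1 kb (left) or 10 kb (right) from the TSS in each line, for class I and class II OR genes of chromosome 11 and for 3 comparison sets. Class II genes were lowest in both panels, with 1.71% at 1 kb in each line, and other chromosome 11 genes were at 80.8% and 80.6%.

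In either line, 11 members had a TSS region, and 8 of them were class I. At 4 members it contained the TSS itself in both lines. The sequence upstream of 1 of these, and 3 regions inside or beside other members, are printed because the results below turn on them. They were read from the hg38 genome on the strand of the gene. Capitals mark exact matches, on either strand, to the words of LHX homeodomain factors (TAATTA), OTX2 (TAATCC), EBF (CCCNNGGGA) and CTCF (CACNAGGTG, CACNAGAGG, CACNAGGGG or CACNAGATG). The words are coarse stand-ins for a binding site. The first is the 250 bases before the TSS of OR52N2, at chr11:5808674-5808923 on the plus strand. No word was found in this window. The whole TSS region of OR52N2 held 2 CTCF words and 1 EBF word in H82, and 1 of each in H146.
OR52N2: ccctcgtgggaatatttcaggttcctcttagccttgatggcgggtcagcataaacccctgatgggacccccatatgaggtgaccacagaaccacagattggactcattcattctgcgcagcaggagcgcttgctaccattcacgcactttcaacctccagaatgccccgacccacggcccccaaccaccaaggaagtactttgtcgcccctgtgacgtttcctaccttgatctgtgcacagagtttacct

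The next 3 are the region inside the coding exon of OR6M1 that both lists held with the same edges, at chr11:123805426-123805712 on the minus strand, the middle 300 bases of the H82-only region before OR4D6, at chr11:59455728-59456027, and the middle 300 bases of the H146-only region in an intron of OR8G1, at chr11:124241599-124241898, both on the plus strand. The OR6M1 region held 1 EBF and 1 OTX2 word, the OR4D6 stretch 1 OTX2 word and the OR8G1 stretch 1 LHX word.
OR6M1: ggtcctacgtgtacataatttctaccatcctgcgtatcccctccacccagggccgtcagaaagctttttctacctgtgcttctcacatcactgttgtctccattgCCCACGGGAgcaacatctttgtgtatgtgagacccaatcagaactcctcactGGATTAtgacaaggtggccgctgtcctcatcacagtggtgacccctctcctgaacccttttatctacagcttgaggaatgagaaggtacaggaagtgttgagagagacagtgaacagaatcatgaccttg
OR4D6: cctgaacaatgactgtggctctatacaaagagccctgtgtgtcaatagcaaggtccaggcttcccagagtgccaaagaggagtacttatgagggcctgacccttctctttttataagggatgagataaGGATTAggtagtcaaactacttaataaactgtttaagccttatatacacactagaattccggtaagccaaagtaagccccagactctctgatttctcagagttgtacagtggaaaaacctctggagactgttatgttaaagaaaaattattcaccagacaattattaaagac
OR8G1: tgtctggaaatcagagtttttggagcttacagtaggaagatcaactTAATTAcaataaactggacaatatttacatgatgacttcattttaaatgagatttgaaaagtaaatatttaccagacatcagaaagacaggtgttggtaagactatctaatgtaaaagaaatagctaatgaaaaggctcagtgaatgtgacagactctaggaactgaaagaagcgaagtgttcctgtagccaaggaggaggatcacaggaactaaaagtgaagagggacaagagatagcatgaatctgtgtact

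OR51E2, a receptor for short fatty acids that is also known from prostate, lay under a 780 bp region from 401 bp before to 378 bp after its TSS. This region had the same start and end in both lists. The neighbouring gene OR51C1P starts beside it on the same strand, so the region cannot be given to either gene. OR51D1 lay under a region of 1299 bp in H82 (from -595 to 703 bp) and 1787 bp in H146 (from -662 to 1124 bp), with no edge in common. It was the widest TSS region of the family in H146. The 1 kb around its TSS had a GC content of 53.9%, against a median of 39.4% over the members and 59.2% over all genes.

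OR52N2 had a region of 1631 bp in H82, which began 1451 bp before the TSS, and of 649 bp in H146, which began 469 bp before it. Both ended on the same base, 179 bp after the TSS. OR56A3 had regions of 677 bp in H82 and 905 bp in H146, again with 1 equal edge 188 bp after the TSS. Its TSS lies 132 bp from that of TRIM5, an antiviral restriction factor, and the region cannot be told apart from the TRIM5 promoter.

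In 3 members the region began after the TSS in both lines. In OR51T1 it began 123 bp after the TSS in H82 (355 bp wide) and 13 bp after it in H146 (1146 bp wide), and its centre lay in the coding exon. In OR51L1 it lay in an intron, 539 bp wide in H82 and 592 bp in H146, with no edge in common. In OR6M1 it was the 287 bp coding stretch printed above, 637 to 923 bp after the TSS. These 3 regions did not reach the annotated TSS. At OR51T1 and OR6M1 that TSS is the first coding base itself, so the annotation gives no transcribed sequence before the coding part.

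The other 4 members had a TSS region in 1 line. OR51E1, next to OR51E2 and also a fatty acid receptor, had a 428 bp region in its intron in H82, 887 bp after the TSS, and the nearest H146 region was 3815 bp away. OR4D6 had a 346 bp region before the TSS in H82, and no H146 region nearer than 26691 bp. OR51A2 had a 408 bp region before the TSS in H146, inside an intron of MMP26, a matrix metalloproteinase gene that spans several OR genes. All 100-base words of this region occurred once in the genome (100% unique), and 89.3% of those in the 1 kb to each side of the OR51A2 TSS did. OR8G1 had a 401 bp region in its intron in H146, and the nearest H82 region was 29195 bp away.

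**Figure D3:**
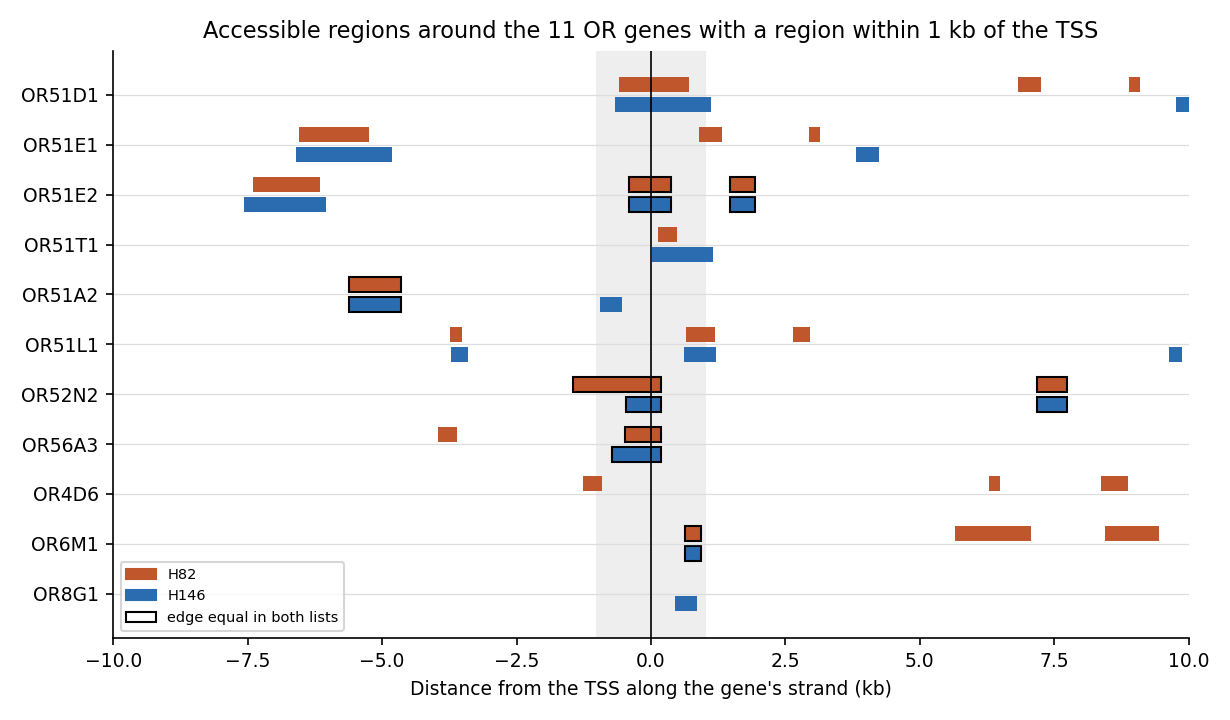
Accessible regions up to 10 kb from the TSS of the 11 OR genes with a region in the grey band (1 kb to each side), drawn along each gene's strand, with H82 above H146. Black outlines mark regions with an edge on the same base in both lists, as at OR51E2 and OR6M1. OR4D6 had 3 regions in H82 and 0 in H146.

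The share of the 20 kb around a TSS that regions covered gave the same picture. The mean over members was 1.02% in H82 and 1.06% in H146, with a median of 0 in each line, against means of 16.9% and 14.4% over all genes. Class I genes had means of 2.13% and 2.67%, and class II genes 0.492% and 0.303%. Without regions that shared an edge, the member means were 0.664% and 0.665%. The highest shares in H82 were at OR6M1 (13.4%), OR51E2 (12.5%), OR2D3 (12.1%), OR52N2 (10.9%) and the pair OR51D1 and OR51E1 (9.68% each). In H146 they were at OR51E2 (14.0%), OR51G2 (13.6%), OR2D3 (12.4%), OR51G1 (12.4%) and OR51E1 (11.1%). The windows of OR51G1 and OR51G2 overlap and hold the same regions. OR2D3 lies 5402 bp from the TSS of the zinc finger gene ZNF215, which had a region in both lines.

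Where a member had a region at most 10 kb away in either line, the lines nearly always differed in covered share, and in both directions. Of these 52 members, 18 were higher in H82 and 33 in H146, and OR52W1 was equal (1.06% in each line). The remaining 120 were at 0 in both. Among class I genes it was higher in H82 at 8 and in H146 at 25, and among class II genes at 10 and 8. Even a small shift of a region's edge was enough to count as a difference. The same counts were not made over all genes, so they are not shown to be particular to OR genes. The largest difference was at OR6M1, with 13.4% in H82 and 1.43% in H146. It came from H82-only regions of 1412 and 990 bp that lay 5653 and 8449 bp after the TSS, beyond the gene. OR51B5 followed (5.86% in H82 and 0 in H146), but its annotated TSS coincides with that of a gene outside the family. OR4D6 (5.26% and 0), OR52N2 (10.9% and 6.01%) and OR4D10 (3.21% and 0) were also higher in H82. The differences towards H146 were largest at OR51G2 (6.86% in H82 and 13.6% in H146) and OR51G1 (5.69% and 12.4%). They were followed by OR56A1 (0 in H82 and 4.58% in H146), OR51T1 (1.77% and 5.73%) and OR52A1 (2.43% and 5.21%). With 1 pooled list per line, these differences have no replicate error and were not tested.

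**Figure D4:**
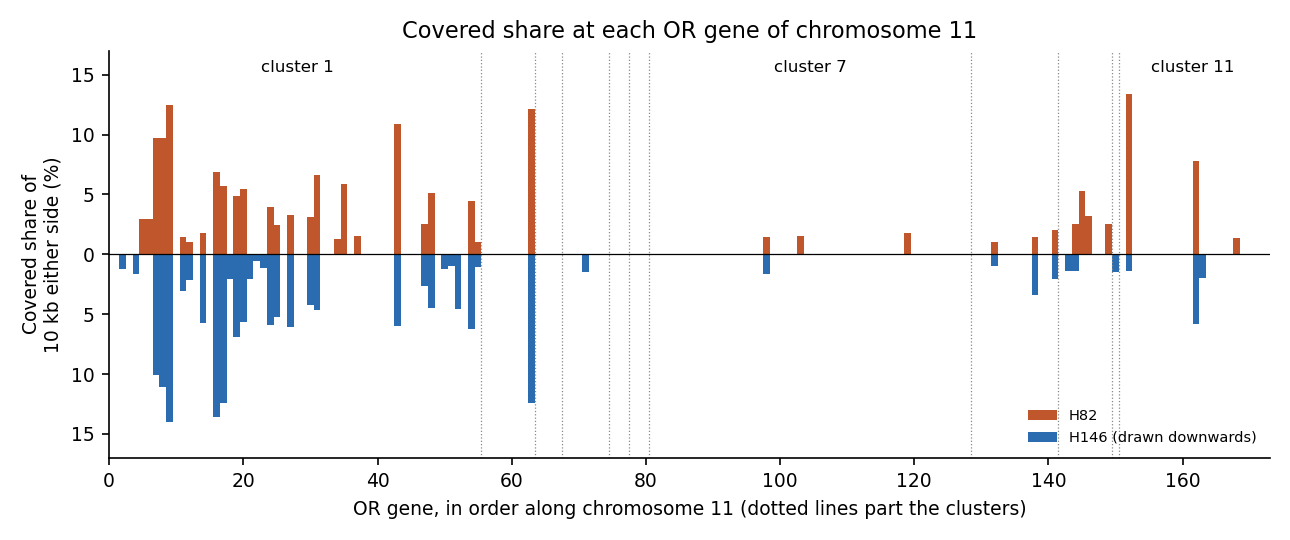
Covered share (percent) of the 10 kb on both sides of each TSS, for each of the 172 OR genes in order along chromosome 11, with H82 drawn upwards and H146 downwards. The covered genes gather in cluster 1, which holds all 55 class I genes, and 48 genes of cluster 7 are almost bare in both lines.

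The members fell into 11 clusters when a new cluster was begun after 500 kb without a member. Together the clusters held 138 H82 regions, or 22.6 per Mb (exact Poisson 95% interval 19.0 to 26.7, counting error only), and 129 H146 regions, or 21.2 per Mb (17.7 to 25.1). Chromosome 11 as a whole had 67.1 and 69.8 per Mb. Cluster 1, from OR52B4 to OR52W1, spanned 1.85 Mb with 33.0 regions per Mb in H82 and 38.4 in H146, and 34 of its 55 members had a region within 10 kb in either line. Cluster 7, from OR4A16 to OR5AK2, was nearly as long (1.67 Mb) but had 7 regions in H82, or 4.20 per Mb (1.69 to 8.66), and 4 in H146, or 2.40 per Mb (0.654 to 6.15). Of its 48 members, 3 had a region within 10 kb. Cluster 9, from OR5AN1 to OR10V1, was the one where H82 had most regions per Mb, at 56 against 32.0 in H146. The intervals overlapped (34.7 to 85.6 and 16.5 to 55.9). Only 5 of its 21 H82 regions and 1 of its 12 H146 regions lay within 10 kb of a member. The densities also count regions of other protein-coding genes in the spans. In cluster 1, 8 of 20 such genes had a TSS region in H82 and 6 in H146. In cluster 7 it was 0 of 4 in each line, and in cluster 9 it was 2 of 3 in each line.

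Some of these stretches were the longest without a region on the chromosome. Between chr11:55273720-55872510, 599 kb held no region of either line and 14 members from OR4A16 to OR5D16, which was the longest such stretch of sequenced chromosome 11. The next one with members, 385 kb from OR5M11 to OR5G3, held 8. Of 69 region-free stretches of at least 100 kb on the chromosome, 14 contained a member, and 59 members lay inside them. Other genes inside these stretches were not counted, so this number has no background beside it. By the nearest region of either line, the farthest member was OR4C16, 300 kb away in H82 and 298 kb in H146. In 1 line alone the distances were longer, up to 1269 kb in H82 (OR4C46) and 346 kb in H146 (OR9G4).

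**Figure D5:**
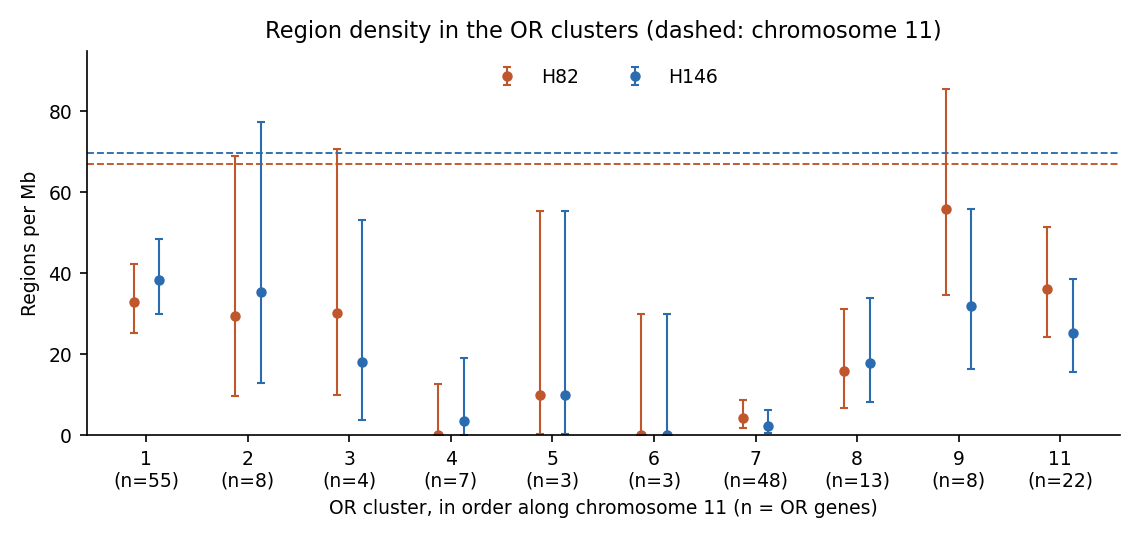
Accessible regions per Mb in the 10 clusters with more than 1 OR gene, for H82 and H146, with exact Poisson 95% intervals that cover counting error only. Dashed lines are chromosome 11 as a whole (67.1 and 69.8 per Mb), and cluster 7 lies at 4.20 and 2.40.

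In all, 53 H82 and 52 H146 regions lay within 10 kb of a member. They were narrower than usual, with median widths of 392 and 401 bp against 482 and 499 bp over all regions, and their median GC content was 45.2% and 45.0% against 49.6% and 49.5%. Of these regions, 43 and 45 lay over 10 kb from the annotated TSS of any protein-coding gene outside the family. Starts of further transcripts and of non-coding genes were not considered, and the same share over all regions was not computed. Their centres fell in a coding exon in 4 H82 and 3 H146 regions, in a non-coding part of an exon in 5 and 5, in an intron in 24 and 22 and between genes in 20 and 22.

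Of these regions, 23 of 53 were H82-only (43.4%, exact binomial 95% interval 29.8% to 57.7%) and 22 of 52 were H146-only (42.3%, 28.7% to 56.8%), meaning that they met no region of the other line. Over the whole genome the shares were 40.7% and 29.5%, and over chromosome 11 they were 29.4% and 33.5%. The share of regions with an edge in the other list was 34.0% and 34.6%. Such regions are never line-only, so leaving them out can only raise the line-only share. It was then 65.7% of 35 H82 and 64.7% of 34 H146 regions near members, against 54.5% and 42.1% over all regions treated the same way. For these smaller sets no interval and no share over chromosome 11 was computed. In the class I cluster, 11 of 34 H82 regions and 15 of 38 H146 regions were line-only, and in the class II clusters 12 of 19 and 7 of 14. All 5 H82 regions near members of cluster 9 were H82-only.

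The H82-only regions near members often held the OTX2 word. It was present in 16 of the 23, with 18 matches or 1.67 per kb, against 1.26 per kb over all 84208 H82-only regions. In the 22 H146-only regions it was present in 2, or 0.277 per kb, against 0.448 per kb over all H146-only regions. OTX2 is a homeodomain factor of neural and retinal development. Between the line-only sets the LHX word had the opposite order. It had 8 matches in 7 of the H146-only regions near members (1.11 per kb, against 0.486 over all H146-only regions). In the H82-only ones it had 2 matches (0.185 per kb, against 0.282). Over all regions near members, 23.1% held the LHX word in H146 and 11.3% in H82, against 19.3% and 16.6% of all regions. The counts are small and the words were compared without a test.

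In 4 of the H82-only regions, near OR56A3, OR8J3, OR5M8 and OR8B3, there was the same 24-base sequence around the OTX2 word, shown here with that word in the middle. This sequence was singled out after the values were seen.
Shared sequence: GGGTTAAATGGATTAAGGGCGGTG

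The shared sequence occurred 1541 times in the genome on either strand, and 1358 of these copies (88.1%) lay in an H82 region, against 19 (1.23%) in an H146 region. No copy lay in a region of H146 alone, and 1339 lay in regions of H82 alone. Within 10 kb of a member there were 5 copies, of which 4 lay in an H82 region and 0 in an H146 region. The sequence was picked from those 4 regions, so this count near members follows from the choice. The 4 regions were 266 to 353 bp wide, and between 0 and 44.2% of their 100-base words occurred once in the genome, so their reads could map to more than 1 place. The other 19 H82-only regions near members were made of words that were all unique. Low shares also occurred outside the H82-only regions. Of the words in an H146-only region near OR5B3, 20.1% were unique. In the shared region near OR5F1 it was 37.6% in H82 and 47.1% in H146. Without the 4 regions, 12 of the 19 left still held the OTX2 word, at 1.47 per kb, the line-only share was 38.8%, and 36 members had an H82 region within 10 kb.

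The windows at the member starts differed in sequence from those of other genes. At members whose annotated TSS is the first coding base, such a window need not be a promoter. In the window from 250 bp before to 50 bp after the TSS, the LHX word was present in 35 of the 172 members (20.3%), against 3.79% of all protein-coding genes, and the OTX2 word in 25 (14.5%), against 7.79%. The EBF word was present in 10 (5.81%, against 9.33%) and a CTCF word in 1 (0.581%, against 3.70%). CpG content, the density of CG pairs within 500 bp of the TSS, had a median of 5.99 per kb over the members and 57.9 over all genes. Median GC content in the same span was 39.4% over the members and 59.2% over all genes. The LHX word holds only A and T, and the words were not compared between genes of like GC content. The 11 members with a TSS region had a median GC content of 40.2% and 8.99 CG pairs per kb.

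The genes that serve olfactory receptors were open at about the share of all genes. Of 25 genes for olfactory signalling and for control of OR genes, 22 had a TSS region in H82 and 21 in H146, beside the 80.5% and 77.2% of all protein-coding genes. RTP1, which carries receptors to the cell surface, had one in H82 only. OMP, a marker of mature olfactory neurons, CNGA2, a subunit of their cyclic nucleotide channel, and the EBF factor gene EBF3 had none in either line. Many genes on this list are used by other cells, so an open TSS there says nothing of an olfactory program.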

How the data were processed

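ATAC-seq was done on 6 H82 and 7 H146 samples, grouped per the labels. Per the labels and the methods, the authors trimmed reads with Trim Galore 0.4.4, aligned them with Bowtie2 2.3.4 to hg38, removed duplicates, called peaks with MACS2 in each sample, dropped blacklisted regions and merged peaks within 500 bp into 1 list of regions per line. The deposited files hold positions only (chromosome, start and end), pooled over treated and untreated samples, so samples, batches and depth cannot be separated. The methods place 3 of the H146 controls in another sequencing batch than the rest of H146.

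Regions were read in Python 3.11.15 with numpy 2.4.6 and set against GENCODE 44 genes. A gene had a region where at least 1 bp of one lay within the window around its TSS, the 5′ end of the gene. At many members, among them OR51T1, OR6M1, OR4D6 and OR51A2, that end is the first coding base. At OR51B5 and OR9Q1 the 2 lie far apart. Positions before or after the TSS thus follow the annotation and need not mark a promoter. With the first coding base in place of the TSS, 6 members in H82 and 7 in H146 had a region within 1 kb. Window counts were checked with bedtools 2.31.1 and on simulated data. The members and lists were chosen with earlier results of these data known. Named members were those with a region within 1 kb, the 5 per line with most covered sequence, the 5 with the largest difference in each direction, and the farthest. A planned repeat content was not computed, since the genome used here carries no repeat marking. The uniqueness of 100-base words in regions near members was added after the data were seen. Intervals are exact and cover counting error only. Sequence came from hg38.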

Additional observations from a re-analysis of the deposited data

How the results depend on the processing

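Every value rests on 1 pooled list per line. No paired analysis was possible because neither list keeps its samples apart, and for the same reason no replicate could be left out and no effect of FHD-286 tested. Of the alternative values computed, 41 stayed within 1.5 times the main count or within its interval and 21 did not. Those without regions that share an edge or hold the repeated sequence were chosen after seeing the data.

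Members with a region at the TSS numbered 4 in each line when the region had to contain the TSS, 5 in H82 within 500 bp, 5 in H82 among regions of at least 500 bp, and 5 in each line without regions that share an edge. Within 5 kb there were 25 members in H82 and 24 in H146, within 20 kb 75 and 70, and with regions of at least 500 bp 24 and 19. Without regions that share an edge the mean covered shares were 0.664% (H82) and 0.665% (H146), and the line-only share was 65.7% and 64.7%. Among regions of at least 500 bp the H146 line-only share was 21.1%. Region density was 29.4 and 28.6 per Mb with clusters joined up to 1 Mb, and 18.2 and 17.2 per Mb without regions within 10 kb of another gene's TSS. The cause of these shifts was not tested beyond the change in window, width or regions left. With depth unknown, absence of a region does not show closed chromatin.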

Other observations

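CTCF and EBF words in the regions near OR genes were counted as for the other words. In H82, 6 of the 53 regions held a CTCF word (11.3%, exact binomial 95% interval 4.27% to 23%), against 13.3% of all H82 regions, and 4 held an EBF word (7.55%, 2.09% to 18.2%), against 16.2%. In H146, 10 of the 52 regions held a CTCF word (19.2%, exact binomial 95% interval 9.63% to 32.5%), against 14.8% of all H146 regions, and 5 held an EBF word (9.62%, 3.20% to 21.0%), against 16.0%. EBF with LHX2 marks the OR enhancers of olfactory neurons. All 4 background shares lay inside the intervals, which cover counting error only. These are shares of regions, and the regions near members were narrower than usual. Per kb, EBF words numbered 0.132 in H82 and 0.165 in H146, against 0.345 and 0.334 over all regions. CTCF words numbered 0.231 and 0.330 per kb, against 0.195 and 0.217. The rates per kb rest on few words, have no interval and were not tested.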
